A study of Homo sapiens with 9 samples.

Results

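NEAT1 and MALAT1 are neighbouring genes of long nuclear RNAs on human chromosome 11, and RNA polymerase II was mapped across both of them in the human embryonic kidney line HEK293T. Their peaks were chosen by position: every peak that overlapped either gene in GENCODE version 44, or lay within 2000 bp of it, in any of 3 deposited peak lists. The annotation holds 62700 genes, of which these are 2. There were 3 such peaks among 8930, and all 3 lay at MALAT1, with 1 in each list. NEAT1 had 0 peaks in the control list, 0 under U2AF1 knockdown and 0 under DHX9 knockdown. Both are lncRNA genes, and of all 18866 such genes 5.02% had a peak by the same rule in the control list, 2.83% under U2AF1 knockdown and 8.21% under DHX9 knockdown.

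The study used chromatin immunoprecipitation and sequencing (ChIP-seq) with an antibody to POLR2A, the catalytic large subunit of the polymerase. Its 9 samples were 2 ChIP replicates and 1 input each for cells with a control shRNA (shCtrl, genotype given as wildtype), cells with knockdown of U2AF1 and cells with knockdown of DHX9, all of the same line. U2AF1 is the subunit of the splicing factor U2AF that contacts the end of an intron, and DHX9 is a helicase that unwinds RNA from DNA or RNA. Each condition had 1 list of peaks, which its labels assign to both ChIP replicates. However, the names of the control peaks carry a 1 after shCtrl, which may stand for the first replicate alone. No value therefore has a replicate error, and no difference between conditions was tested against replicate spread.

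MALAT1 RNA collects in nuclear speckles, bodies rich in splicing factors, and NEAT1 RNA is the scaffold of paraspeckles, bodies that form around its own gene. Both RNAs are abundant in many cell types, largely escape splicing and stay in the nucleus. RNase P cuts the end of MALAT1 RNA and of the long form of NEAT1 RNA, and the cut end is protected by a triple helix instead of a poly(A) tail. NEAT1 is made as a short polyadenylated form and a long form that share 1 start.

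MALAT1 (ENSG00000251562.11) lies at chr11:65497640-65508073 on the plus strand of GRCh38, is 10434 bp long and has 66 annotated transcripts. The annotation places transcript starts of MALAT1 in separate groups. The first group holds 7 transcripts, with starts from 65497640 to 65498388. The second holds 33 transcripts, with starts from 65499038 to 65499091, and 19 of these begin exactly at 65499045, which is also a RefSeq start. A further 26 transcripts begin between 65499986 and 65504702, inside the RNA of the others.

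The polymerase peak of every list lay over the second group of starts, 1405 bp into the annotated gene, and not over the first. The control peak was at chr11:65498899-65499250 and was 352 bp wide. The U2AF1 knockdown peak was at chr11:65498949-65499260, 312 bp wide, and the DHX9 knockdown peak at chr11:65498896-65499264, 369 bp wide. The peaks shared 302 bp, from 65498949 to 65499250, which was 81.8% of the 369 bp that any of them covered. Each was thus overlapped by a peak in both other lists. Of all peaks, 30.5% of the control list, 48.1% of the U2AF1 knockdown list and 18.7% of the DHX9 knockdown list were found in both others. The upstream edges of the MALAT1 peaks differed by up to 53 bp and the downstream edges by up to 14 bp.

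The sequences around both RefSeq starts of MALAT1 are shown because the peaks covered one and not the other. RefSeq windows from 250 bases before to 50 after a start (GRCh38.p14, plus strand) matched 1 of the 2 genes, MALAT1, at both of its starts. Capitals mark matches to a TATA box (TATAAA) or a GC box (GGGCGG), searched on both strands. The first window, chr11:65497488-65497787, lies at the upstream start, 65497738. The next, chr11:65498795-65499094, lies at the internal start, 65499045. The last run, chr11:65499095-65499250 from hg38, continues from there to the downstream edge that the 3 peaks share.
Upstream start: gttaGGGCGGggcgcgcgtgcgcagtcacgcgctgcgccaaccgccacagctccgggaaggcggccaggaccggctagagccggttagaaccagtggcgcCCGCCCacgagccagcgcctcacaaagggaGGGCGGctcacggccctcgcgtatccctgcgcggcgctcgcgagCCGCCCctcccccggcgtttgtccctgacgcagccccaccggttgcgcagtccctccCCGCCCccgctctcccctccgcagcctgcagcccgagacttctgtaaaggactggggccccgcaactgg
Internal start: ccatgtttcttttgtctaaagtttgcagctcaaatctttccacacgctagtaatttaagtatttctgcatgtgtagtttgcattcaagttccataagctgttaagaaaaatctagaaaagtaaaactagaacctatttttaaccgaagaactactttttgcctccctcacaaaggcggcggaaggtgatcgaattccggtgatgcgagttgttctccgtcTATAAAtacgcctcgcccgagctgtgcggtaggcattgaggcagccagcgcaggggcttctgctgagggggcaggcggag
After the internal start: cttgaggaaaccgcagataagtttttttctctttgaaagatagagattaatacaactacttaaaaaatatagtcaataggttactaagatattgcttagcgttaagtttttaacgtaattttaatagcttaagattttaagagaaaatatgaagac

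The internal window held 1 TATA box, its first base 30 bases before the start, and 0 GC boxes. The upstream window held 0 TATA boxes and 5 GC boxes. Over 35116 RefSeq windows of 300 bases, 11.5% held TATAAA on either strand and 45% held GGGCGG. In 2.30% of them TATAAA lay on the gene's strand with its first base between positions -40 and -20 from the start, as at the internal start of MALAT1. A match is a description of the letters and not evidence of a factor bound there. Neither window held CCAAT, which 34.6% of all windows had. GC made up 73.7% of the upstream window and 46.0% of the internal one. In the last run it fell to 26.3% of 156 bases.

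**Figure D1:**
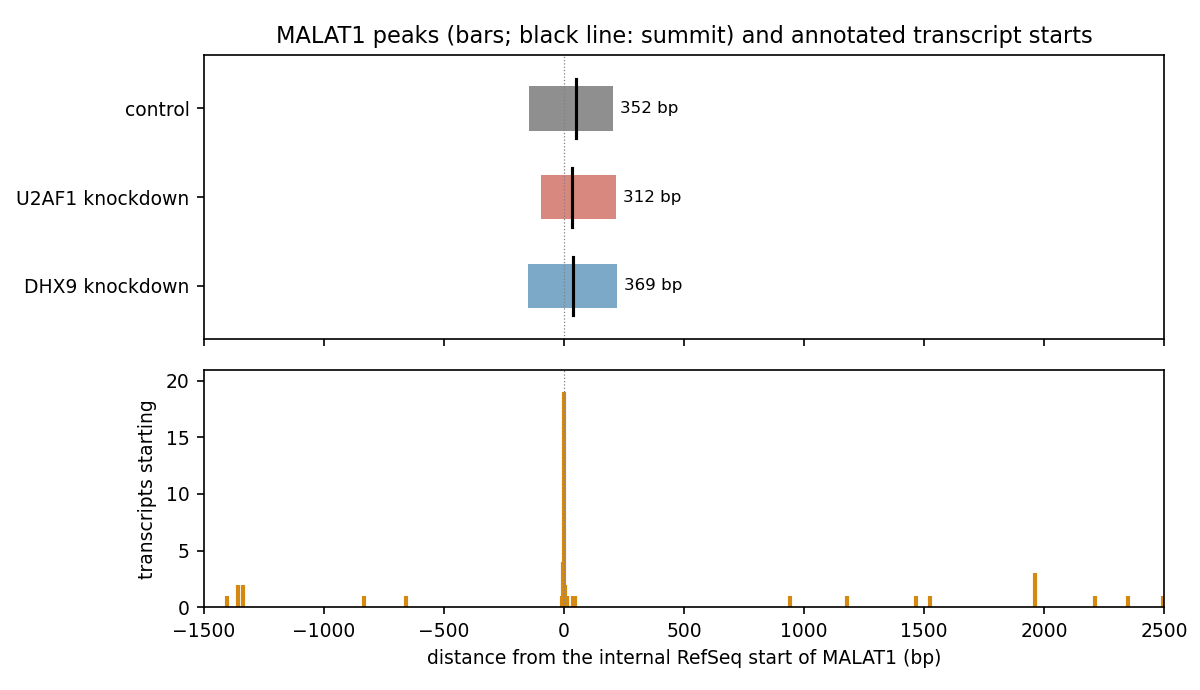
Extent of the MALAT1 peak in each list (bars, black lines at the summits) and number of annotated MALAT1 transcripts that begin at each position, against distance in bp from the internal RefSeq start. The 3 summits sit 34 to 50 bp downstream of the start used by 19 transcripts, and no bar reaches the starts farther upstream; the most distant downstream starts are off the axis.

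The summit, the position of highest signal in a peak, was at 65499095 in the control list, 65499079 under U2AF1 knockdown and 65499083 under DHX9 knockdown. These positions were 50, 34 and 38 bp downstream of the internal start. The summits of the U2AF1 and DHX9 knockdown peaks were 4 bp apart, and both were within 16 bp of the control summit. Of the annotated MALAT1 transcripts that span the control summit, 39 of 40 have an exon there, and at the other summits it was 37 of 38. From the downstream edge of the peak to the annotated end of MALAT1, a stretch of 8809 to 8823 bp, there was no further peak in any list. Peaks thus covered 3.37% of the gene in the control list, 2.99% under U2AF1 knockdown and 3.54% under DHX9 knockdown.

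ChIP peaks carry no strand, and antisense genes are annotated on both sides of the MALAT1 peak. ENSG00000270117, a minus-strand lncRNA gene, begins at 65498617, which was 462 to 478 bp upstream of the summits. TALAM1 (ENSG00000289740.1, chr11:65499312-65507432, minus strand), the antisense partner of MALAT1, ends 47 to 61 bp beyond the downstream edges of the peaks. TALAM1 was overlapped by 0 peaks in each list and had 0 within 2000 bp of its start.

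A summit at an internal start, as at MALAT1, was not rare among all peaks. Such summits were counted where they lay within 100 bp of transcript starts that were all over 1000 bp from the start of their gene. They made up 8.05% of control peaks (222 of 2757), 8.15% of U2AF1 knockdown peaks (141 of 1730) and 9.03% of DHX9 knockdown peaks (401 of 4443). Among these, the MALAT1 peak had the 45th highest fold enrichment in the control list, the 9th under U2AF1 knockdown and the 4th under DHX9 knockdown.

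Sequence at the MALAT1 summit stood apart from that at most peaks. In the 300 bp centred on the summit, GC was 42.7% in the control list, against a median of 70.0% over 2755 peaks, and 10.9% of these had a lower value. In the knockdown lists the MALAT1 window had 43.3% GC, against medians of 71.3% and 71.7%, with 6.30% of U2AF1 knockdown peaks and 1.62% of DHX9 knockdown peaks lower. A coding strand with more G than C favours R-loops, RNA hybridised to the template strand of DNA, which the series is about. In the 300 bases downstream of the summit, the MALAT1 coding strand had 60 G and 30 C in the control list, 69 G and 31 C under U2AF1 knockdown, and 66 G and 31 C under DHX9 knockdown.

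These counts gave a skew, (G − C)/(G + C), of 0.33, 0.38 and 0.36 at MALAT1 in the control list and under U2AF1 and DHX9 knockdown. The median over peaks within 1000 bp of a transcript start was 0.056 in the control list, 0.047 under U2AF1 knockdown and 0.056 under DHX9 knockdown. A higher skew than that of MALAT1 was found at 1.17% of 2315 control peaks, 0.62% of 1292 U2AF1 knockdown peaks and 1.09% of 3943 DHX9 knockdown peaks. The windows overlap, so the 3 values are 1 sequence read from slightly different positions. GC was at most 33.3% of these windows, so the skew of MALAT1 rests on fewer G and C than that of GC-rich promoters.

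The authors' fold enrichment of the MALAT1 peak was 5.80 in the control list, 8.70 under U2AF1 knockdown and 13.9 under DHX9 knockdown. It is the ratio of the signal at the summit to the background that the peak caller assigned there. Within the lists the median fold enrichment was 4.13, 4.75 and 5.27, so the MALAT1 peak lay above the middle of each. It ranked 423 of 2757 in the control list (the top 15.3%), 113 of 1730 under U2AF1 knockdown (the top 6.53%) and 91 of 4443 under DHX9 knockdown (the top 2.05%). Its −log10 q values were 31.5, 20.2 and 43.7, against medians of 7.59, 5.86 and 6.26. By width the MALAT1 peak was ordinary, ranking 1130 in the control list, 708 under U2AF1 knockdown and 1712 under DHX9 knockdown, which is the top 38.5% to 41.0%.

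**Figure D2:**
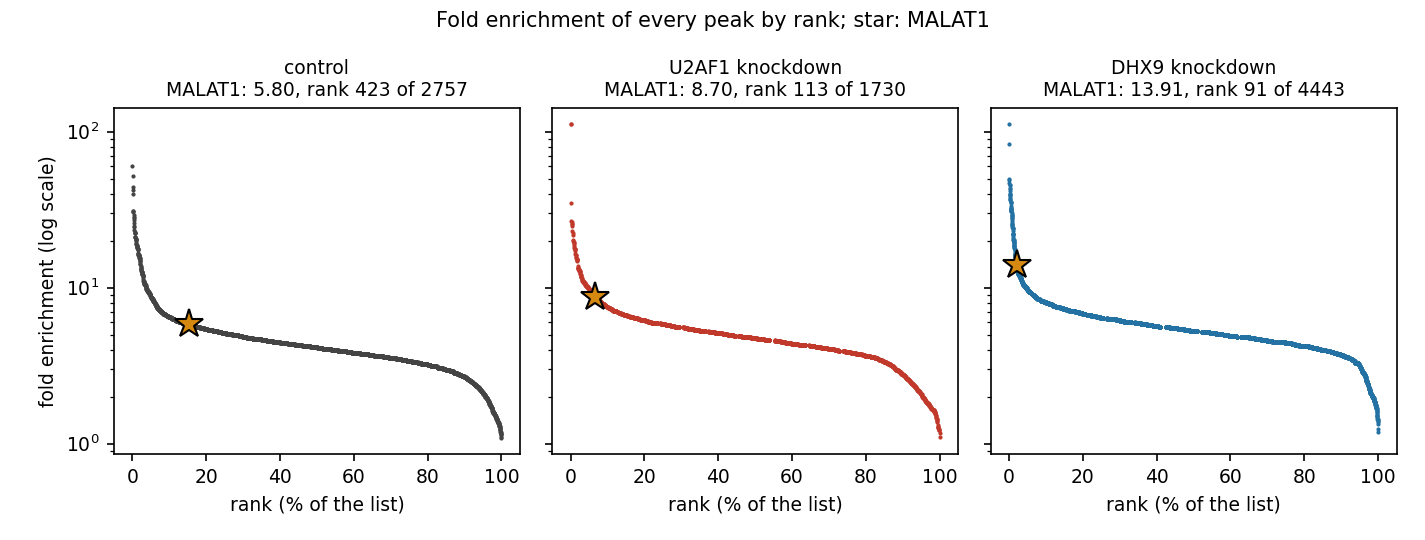
Fold enrichment of every peak (log scale) against its rank as a percent of its list, 1 panel per list, with the MALAT1 peak as a star. MALAT1 sits at the foot of the steep part of the curve in the control list, at 5.80, and well up it under DHX9 knockdown, at 13.9.

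The order of the lists by the rank of MALAT1 depended on the measure ranked. By −log10 p the MALAT1 peak ranked 209 in the control list (the top 7.58%), 166 under U2AF1 knockdown (the top 9.60%) and 100 under DHX9 knockdown (the top 2.25%). The control list was thus below the U2AF1 knockdown list by fold enrichment and above it by −log10 p. The DHX9 knockdown list had the highest place for MALAT1 by either measure. Lists of different length hold different numbers of weak peaks, so these percentages are not on 1 scale.

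Fold enrichment and p together fix the number of fragments that overlap the summit (the pileup) and the background it was tested against, if the caller's score is a Poisson test. Both could be recovered for 2756 of 2757 control peaks and for all peaks of the knockdown lists. At the MALAT1 summit there were 103 fragments in the control list, 35 under U2AF1 knockdown and 54 under DHX9 knockdown. The median peak had 41, 20 and 17. In the control list each fragment counted as 0.779, so its 103 fragments gave a scaled pileup of 80.2.

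The background at the MALAT1 summit was 13.0 in the control list, 3.14 under U2AF1 knockdown and 2.95 under DHX9 knockdown. Each list had a lowest background, shared by 120 control, 158 U2AF1 knockdown and 470 DHX9 knockdown peaks, of 3.85, 2.05 and 1.68. The background at MALAT1 was 3.38 times this value in the control list, 1.53 times under U2AF1 knockdown and 1.76 times under DHX9 knockdown. The median peak stood at 1.76, 1.43 and 1.37 times. A background ratio as high as at MALAT1 was found at 12.8% of control peaks (352), 45.7% of U2AF1 knockdown peaks (791) and 23.8% of DHX9 knockdown peaks (1058). So MALAT1 was tested against a higher background than most peaks in the control list and a nearly typical one under U2AF1 knockdown. Whole numbers made up 42.1% of control backgrounds, 0.058% of U2AF1 knockdown and 1.91% of DHX9 knockdown backgrounds. The control background at MALAT1, 13.0, was a whole number, and those in the knockdown lists were not. The background ratios of the lists may therefore not be on 1 scale. No counting interval was formed for the background, and no difference in it between conditions was tested.

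Set against the lowest background of its own list, the MALAT1 pileup was 20.8 in the control list (95% exact Poisson interval 17.01 to 25.3). It was 17.04 under U2AF1 knockdown (11.9 to 23.7) and 32.2 under DHX9 knockdown (24.2 to 42.0). These intervals cover the counting error of the fragments alone. They hold no replicate spread, and no difference between conditions was tested. Over the 802 peaks matched one to one in all 3 lists, the median of the same ratio was 11.1 in the control list, 10.7 under U2AF1 knockdown and 14.9 under DHX9 knockdown, so the ratio was higher at shared peaks in general under DHX9 knockdown. MALAT1 lay above this median in each list.

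**Figure D3:**
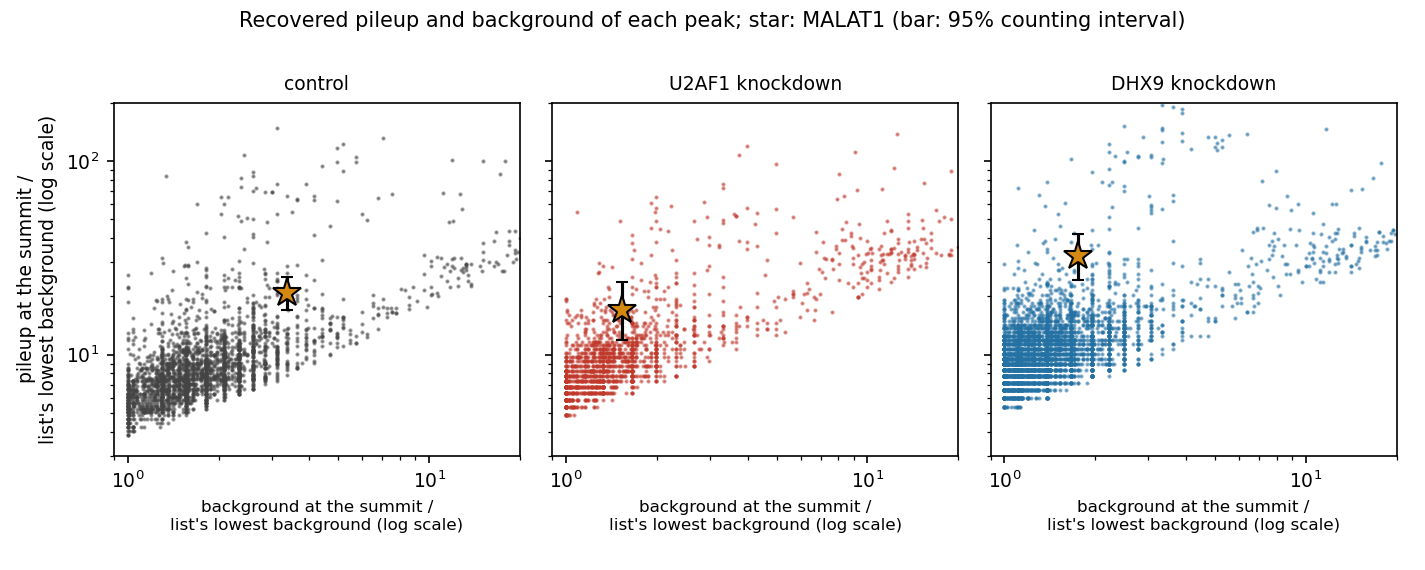
Pileup at the summit against background at the summit for each peak, both divided by the lowest background of the list (log scales), 1 panel per list; the star is MALAT1 and its bar the 95% counting interval, and peaks beyond the axis limits are not drawn. MALAT1 sits at a background of 3.38 in the control list, to the right of most peaks, and at 1.53 and 1.76 in the knockdown lists.

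Ranks are comparable between lists when the same peaks are ranked in each, and the 802 shared peaks, MALAT1 among them, allow this. Among these, MALAT1 ranked 161 by fragments in the control list, 170 under U2AF1 knockdown and 129 under DHX9 knockdown, that is, the top 20.1%, 21.2% and 16.1%. By fold enrichment it ranked 285, 105 and 83, the top 35.5%, 13.1% and 10.3%. By −log10 p it ranked 164, 130 and 87. By background ratio it ranked 116 in the control list, 381 under U2AF1 knockdown and 273 under DHX9 knockdown. Among the shared peaks the ranks of MALAT1 thus ran from 129 to 170 by fragments and from 87 to 164 by −log10 p. They ran from 83 to 285 by fold enrichment and from 116 to 381 by background ratio. All these ranks carry counting error that was not computed for them, and no difference between lists was tested.

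**Figure D4:**
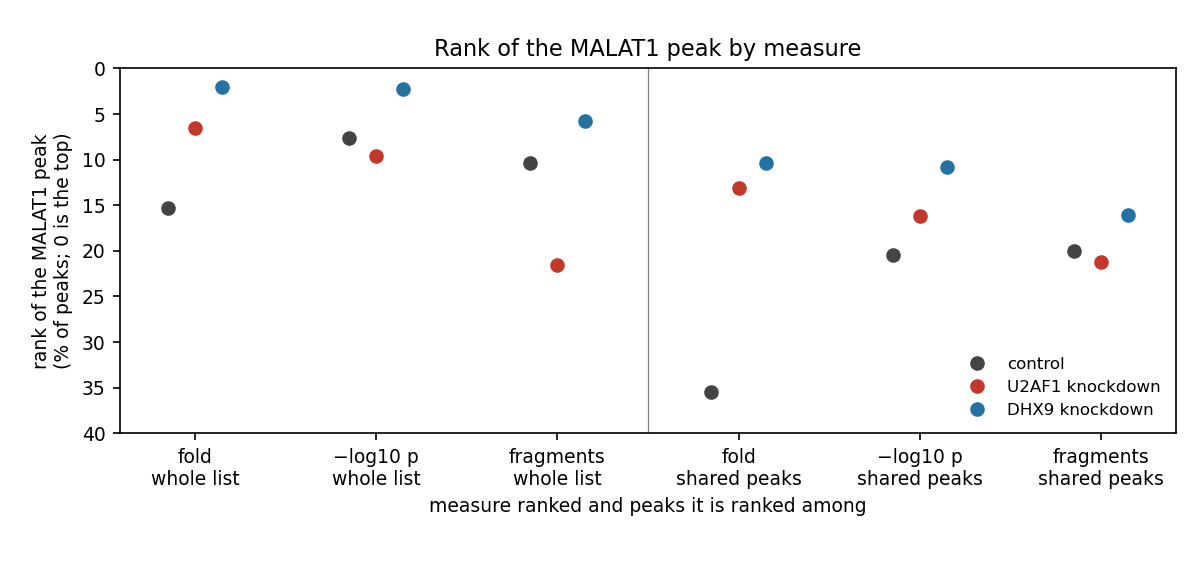
Rank of the MALAT1 peak as a percent of the peaks ranked (0 is the top), by fold enrichment, −log10 p and fragments, among all peaks of each list (left) and among the 802 peaks shared by the 3 lists (right). The 3 lists lie within 16.1% to 21.2% by fragments among shared peaks and spread from 10.3% to 35.5% by fold enrichment.

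NEAT1 (ENSG00000245532.11) lies at chr11:65422774-65445540, plus strand, 22767 bp long, and ends 52099 bp before MALAT1 begins. Its 9 annotated transcripts begin between 65422774 and 65425551 and span 835 to 22743 bp. No peak of any list came near these starts. The gap to the nearest peak upstream was 67809 bp in the control list, 67800 under U2AF1 knockdown and 67845 under DHX9 knockdown. Downstream of NEAT1 the nearest was the MALAT1 peak in the control and U2AF1 knockdown lists, 53358 and 53408 bp away, and another peak, 31735 bp away, under DHX9 knockdown. The numbers in the peak names ran without a gap through the region.

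The lists hold only peaks that passed the caller's threshold, whose lowest listed −log10 q was 1.30 to 1.31, so they give no level for NEAT1. The smallest number of fragments at any listed summit was 19 in the control list, 10 under U2AF1 knockdown and 9 under DHX9 knockdown, and peaks at the lowest background of each list reached down to the same numbers. MALAT1 had 103, 35 and 54 fragments, several times these minima. Polymerase at NEAT1 was thus not called as a peak in these lists, which does not show that it was absent.

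In the 285.3 kb from 100 kb upstream of NEAT1 to 100 kb downstream of MALAT1, there were 2 peaks in the control list, 2 under U2AF1 knockdown and 4 under DHX9 knockdown. Of 36 other annotated genes that reach into this region, 5 had a peak within 2000 bp in the control list. Under U2AF1 knockdown it was 5 and under DHX9 knockdown 9. The share of all annotated genes by this rule is not given here, and the neighbours are of several gene types, so these counts have no background. In each list TALAM1 and ENSG00000270117 were counted through the MALAT1 peak itself, and DPF2, ENSG00000289231 and TIGD3 through the same peak as each other. Upstream of NEAT1, all lists had a peak at the start of TIGD3, next to the end of DPF2, a chromatin factor gene, and to the lncRNA gene ENSG00000289231. It ranked 976 in the control list, 206 under U2AF1 knockdown and 794 under DHX9 knockdown, behind MALAT1 each time. At that peak the fragments numbered 46, 22 and 20, fewer than at MALAT1 in each list.

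Between NEAT1 and MALAT1 the DHX9 knockdown list alone had a peak, at chr11:65477276-65477583, 20056 bp before MALAT1 begins. Its summit was 115 bp downstream of a start of ENSG00000289883, a minus-strand lncRNA gene, with 20 fragments and rank 1722. ENSG00000285816 and MAP3K11, which extend beyond the region, had their DHX9 knockdown peak outside it.

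**Figure D5:**
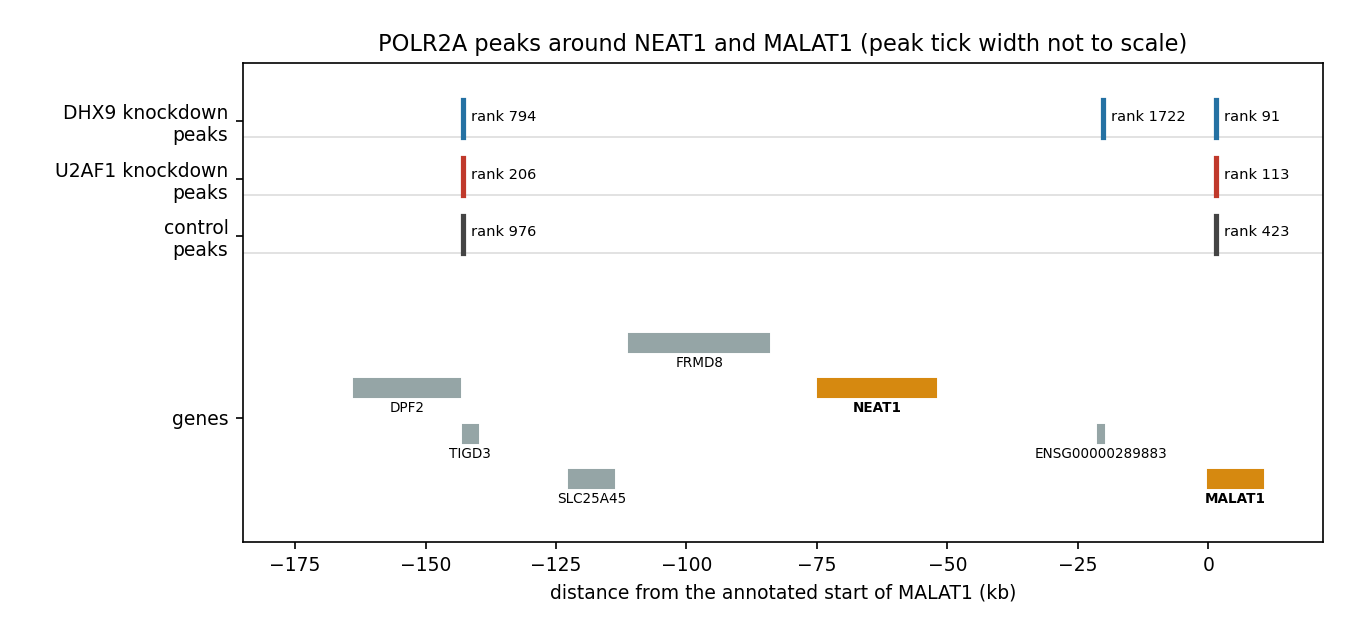
Peaks of the 3 lists and annotated genes (coding genes and ENSG00000289883 in grey, NEAT1 and MALAT1 in orange) against distance in kb from the annotated start of MALAT1; tick labels give the rank by fold enrichment in the list, and the axis ends shortly after MALAT1. NEAT1 has no tick above it, while MALAT1 has 1 in each list, of rank 423, 113 and 91.

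Genes of the proteins that work with both RNAs were examined as 3 lists, by whether a peak lay within 1000 bp of the gene start. Over all 20046 protein-coding genes this was so for 11.2% in the control list, 5.71% under U2AF1 knockdown and 18.4% under DHX9 knockdown. Of 18 paraspeckle protein genes, 6 had such a peak in the control list, 1 under U2AF1 knockdown and 8 under DHX9 knockdown. Among the best ranked in the control list were RBM14, an RNA-binding protein, at 311 and HNRNPH3 at 403. HNRNPH3 was the gene of this list with such a peak in all 3 conditions, and 9 had none in any. Peaks at other annotated starts of a gene do not count here.

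Of 18 nuclear speckle protein genes, 8 had a peak at the start in the control list, 5 under U2AF1 knockdown and 10 under DHX9 knockdown. The SR splicing factor genes SRSF2 and SRSF7 ranked 168 and 250 in the control list, ahead of MALAT1 there, and RBM25 ranked 320. Under U2AF1 knockdown 1 of these genes, SRSF2 at rank 74, stood ahead of MALAT1, and under DHX9 knockdown 0 did. Of 12 genes for RNase P subunits and other factors of the RNAs' ends, 3 had a peak in the control list, 1 under U2AF1 knockdown and 5 under DHX9 knockdown. In the control list these were ELAC2, the nuclease RNase Z that trims the small RNA cut from the end of MALAT1, at rank 964, RPP25 at 1670 and METTL16, which binds the triple helix of MALAT1 RNA, at 2484. POP5, RPP14, RPP21, RPP30 and RPP40, all subunits of RNase P, had 0 peaks in every list, and MALAT1 ranked ahead of all 12 genes in each list.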

How the data were processed

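POLR2A ChIP-seq peaks of HEK293T cells were read from 3 narrowPeak lists, 1 per condition. The submitters' processing notes name Bowtie2 2.4.5, MACS2 2.2.7.1, deepTools 3.5.1 and hg38, with no roles. Filters, the use of input and the pooling of replicates are not given in the sources used here. All 95 sequence names of the lists were in hg38 and 0 peaks ended beyond their sequence. The authors deposited a fold enrichment per peak, a ratio to the background that the peak caller assigned. They also deposited the −log10 p and −log10 q of each peak, and an integer score, which was not used. Fold enrichments were ranked within each list, and no ratio of them between lists was formed.

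Coordinates count from 1. A peak belonged to a gene within 2000 bp, and overlap meant at least 1 shared bp. Rank 1 is the highest fold enrichment. Pileup p and background b were solved from fold = (p + 1)/(b + 1) and the Poisson probability of exceeding p, with p a whole multiple of 1 fragment (0.779 in the control list), within 0.002 of the −log10 p plus rounding. The solver was tested on data made with known values. Depth is known only through these fragments. The analysis used python 3.11.15, numpy 2.4.6, scipy 1.17.1 and pandas 2.3.3.

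Named genes were both members, neighbours with a peak, the 3 best control ranks of each gene list, genes of a list without any peak where 5 or fewer, and genes with the most peaks past their start. Some results that this rule names are not reported here. The rule for genes most like both members set no limit, since NEAT1 had 0 peaks. The members, gene lists and tests were chosen with earlier results of these data known. The lists of conditions hold no replicates, so no test was run. Alternatives were other gene windows, thresholds, rankings and overlap rules. The rankings by fragments and among shared peaks were added after the data were seen.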

Additional observations from a re-analysis of the deposited data

How the results depend on the processing

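The number of peaks at each gene was the same as reported in all 30 alternative values (0 at NEAT1 and 1 at MALAT1, with gene windows of 0 and 5000 bp, a −log10 q of at least 5, equal list lengths and merging within 1000 bp). The overlap of the MALAT1 peaks held in all 24, with 50% of the shorter peak, summits within 250 bp, the stricter q or equal lengths. The covered shares held in all 12. The positions and scores of the peaks left these settings no room to change the outcome. The nearest other peak was 17057 bp or more from MALAT1, and the nearest peak to NEAT1 was 31735 bp away or more. Each MALAT1 peak had a −log10 q of 20.2 or more and ranked 423 or better, and the 3 peaks shared 302 bp. The rank of MALAT1 moved with the measure. By −log10 p and by −log10 q it was the top 7.58% of the control list and the top 9.60% of the U2AF1 knockdown list. By fragments, chosen after seeing the data, it was the top 10.4% in the control list, 21.6% under U2AF1 knockdown and 5.74% under DHX9 knockdown. By fold enrichment among shared peaks, also added, it was 35.5%, 13.1% and 10.3%, where by construction fewer peaks are ranked. With any transcript start, paraspeckle protein genes with a peak numbered 7 (control), 2 (U2AF1 knockdown) and 9 (DHX9 knockdown), in place of 6, 1 and 8. For nuclear speckle protein genes it was 9, 6 and 12 in place of 8, 5 and 10. With a −log10 q of at least 5, 3 genes of end factors had a DHX9 knockdown peak in place of 5. In the control list 2 did in place of 3, and METTL16 was lost. Paraspeckle protein genes fell from 8 to 6 under DHX9 knockdown. Nuclear speckle protein genes fell from 5 to 4 under U2AF1 knockdown and from 10 to 9 under DHX9 knockdown. The share over all protein-coding genes is not given for any transcript start or for the stricter q. These alternative counts therefore have no background, and the shares given for the gene start do not apply to them. No paired analysis was possible because only a single list of peaks stands for each condition, and for the same reason no replicate could be left out.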

Other observations

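MALAT1 had 1 peak more than 1000 bp past its annotated start in each list, and NEAT1 had 0. Peaks were counted by the position of the summit inside the gene alone. They may thus lie at other transcript starts, as at MALAT1, or at starts of other genes. The share of all genes with such a peak is not given here. The gene with the most such peaks was CCDC200, with 14 in the control list, 14 under U2AF1 knockdown and 13 under DHX9 knockdown. The lncRNA gene LINC01138 followed, with 4, 4 and 3. TEX14 had 3 in each list, DANT2 had 0, 3 and 6, and TTC34 had 0, 5 and 3. Among these 5 genes with the largest totals, the number of control peaks was thus 0 for DANT2 and TTC34. With ties taken in alphabetical order, the top 5 of single lists also held CROCC and DNAJB1, with 2 each in the control list, LINC00665, with 4 under U2AF1 knockdown, and ARID1B, BRF1 and DANT1, with 3 each under DHX9 knockdown.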
